A study of Danio rerio with 3 samples.

Results

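The genes described here are the cone opsins and the cone phototransduction genes of zebrafish (Danio rerio) larvae. The set was defined by 9 gene symbols, namely opn1sw1, opn1sw2, opn1mw1, opn1mw2, opn1lw1, gnat2, pde6c, guca1c and arr3a, and takes every probe set whose single annotated symbol is one of them. On the array, 9 of 15617 probe sets met this rule and represented 8 of the genes, with 2 probe sets for gnat2. No probe set carried arr3a, a cone arrestin, as its single symbol, and arr3a is therefore not analysed here.

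Expression was measured in larvae at 192 h post-fertilization (hpf) on Affymetrix zebrafish arrays. One group had been kept from 48 to 96 hpf in cups whose floor was coated with 250 mg of oil emulsion from the Gulfport shoreline, and is called the 48-96 hpf group. Another, the 0-48 hpf group, had been kept in such cups from 0 to 48 hpf. Control larvae were kept in medium without emulsion. Each cup held 30 embryos in 100 ml of medium, and after exposure the larvae spent 96 h (48-96 hpf group) or 144 h (0-48 hpf group) in clean medium. The labels name no strain and do not say how many larvae were pooled for RNA. With 1 array per group there is no replicate error, no test was possible, and the differences below describe these 3 arrays only.

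Cones are the photoreceptors of daylight and colour vision. Their opsins are light receptors tuned to ultraviolet, blue, green or red light. A light-activated opsin switches on the cone transducin, whose alpha subunit is gnat2, and transducin in turn activates the cone phosphodiesterase, whose catalytic subunit is pde6c. The phosphodiesterase breaks down cGMP, which closes the cation channels of the outer segment. Guanylate cyclase, under the control of activating proteins such as guca1c, restores cGMP, and arrestins silence the opsin. In zebrafish larvae cones become functional before rods and carry most of early vision. The arrays were made from whole animals, so a lower reading of a cone transcript can come from fewer cones or from less of the transcript per cone, and these cannot be told apart.

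The values are log2 expression values made with RMA (robust multi-array average), and differences are given on that log2 scale, with a fold as 2 raised to the difference. Genes with no value of at least 7.21, the median over the whole table, were left out. This filter passed 5492 of 8793 genes and 7 of the 8 cone genes. The exception was opn1lw1. A further member, opn1mw2, was kept through its value on the 48-96 hpf array alone. Probe sets of the same gene differed among themselves with an SD of 0.16 (48-96 hpf minus control), 0.11 (0-48 hpf minus control) and 0.13 (48-96 minus 0-48 hpf) over 718 genes. This is a measure of technical spread that holds no difference between larvae.

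All 7 cone genes above the filter were lower on the 0-48 hpf array than on the control array, against 50.4% of all genes. Their log2 differences were -0.12 to -0.86 on the deposited scale, although 3 opsins were above control on the scale of the spike-ins. Of the 7, the cascade genes gnat2, pde6c and guca1c differed most. On the 48-96 hpf array 6 of the 7 were lower than control, by smaller amounts, against 54.6% of all genes. The green opsin opn1mw2 was 2.47-fold higher there. These directions are relative to the bulk of the genes on each array, whose median differences from control were -0.02 (48-96 hpf) and -0.0012 (0-48 hpf). They depend on that scale for the 0-48 hpf array. Control RNAs of bacterial and phage origin, which are spiked into each hybridisation, read 0.01 (48-96 hpf) and -0.50 (0-48 hpf) relative to the control array, with SDs of 0.14 and 0.12 over 18 probe sets.

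**Figure D1:**
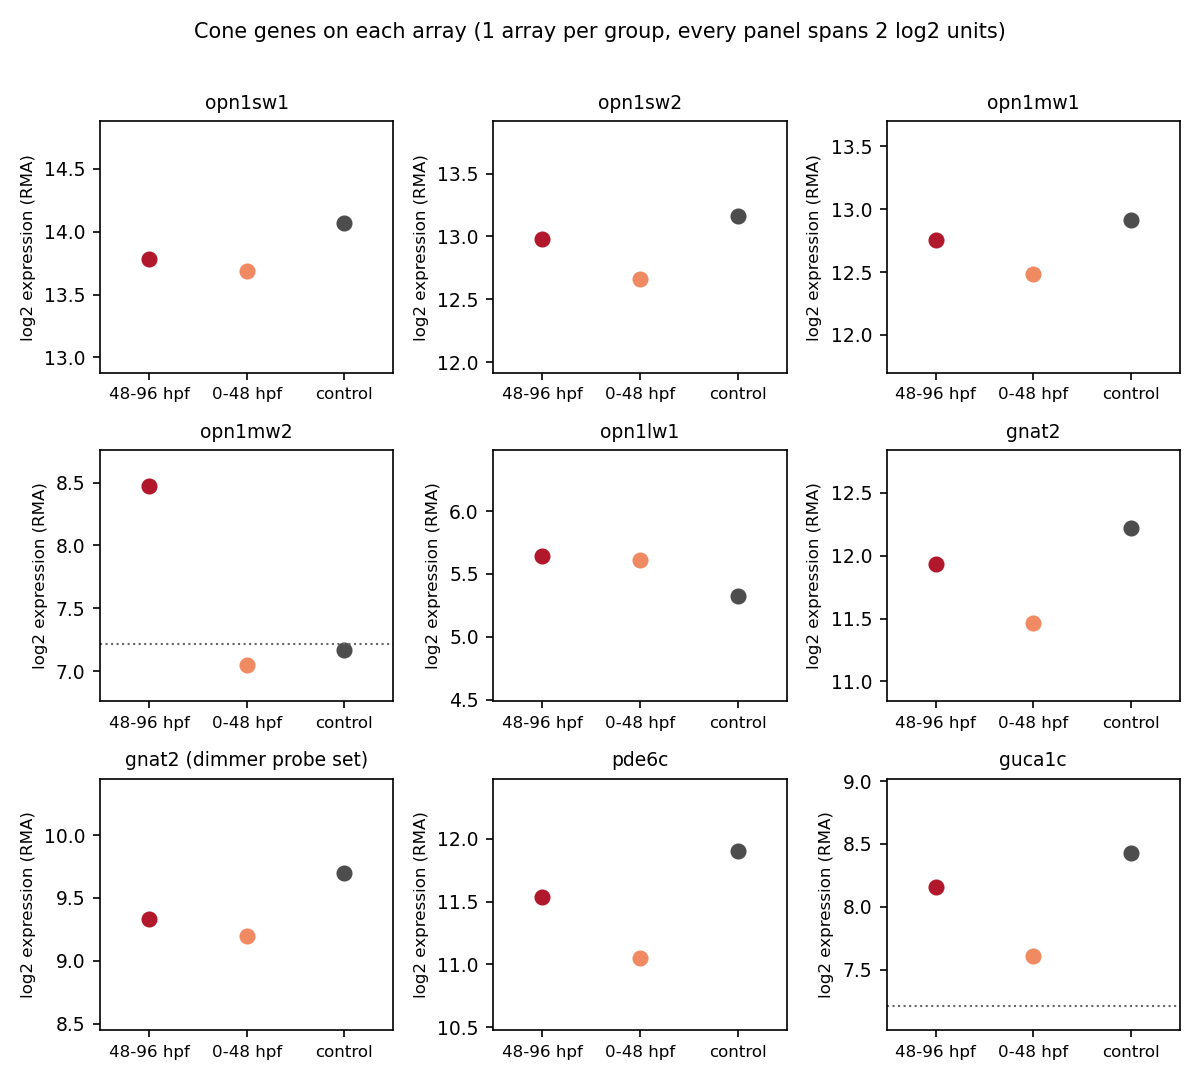
The log2 value of each of the 9 cone probe sets on the 48-96 hpf, 0-48 hpf and control arrays, 1 point per array, with every vertical axis spanning 2 log2 units and the filter of 7.21 as a dotted line where it falls inside the panel. For opn1sw1, opn1sw2, opn1mw1, pde6c, guca1c and both probe sets of gnat2 the control array was highest and the 0-48 hpf array lowest, while opn1mw2 reached 8.47 on the 48-96 hpf array alone.

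Among the opsins, opn1sw1, the opsin of ultraviolet cones, read 13.78 on the 48-96 hpf array and 13.68 on the 0-48 hpf array, against 14.07 on the control array. Both exposed arrays were thus below control, 1.22-fold (48-96 hpf) and 1.31-fold (0-48 hpf), and differed from each other by 0.10, less than the spread between probe sets of a gene. The opsin of blue cones, opn1sw2, read 12.98 on the 48-96 hpf array and 12.66 on the 0-48 hpf array, against 13.17 on the control array. Its differences from control were -0.19 for the 48-96 hpf array and -0.50 for the 0-48 hpf array, the lowest of the opsins in the 0-48 hpf comparison. The green opsin opn1mw1 read 12.76 on the 48-96 hpf array, 12.49 on the 0-48 hpf array and 12.91 on the control array. Its difference from control on the 48-96 hpf array, -0.15, was within the technical spread, and that on the 0-48 hpf array was -0.42.

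The other green opsin measured above the filter, opn1mw2, had a different order of arrays. It read 8.47 on the 48-96 hpf array, against 7.05 on the 0-48 hpf array and 7.17 on the control array. Only the 48-96 hpf value was above the filter, and it was at or above 74.97% of that array's probe sets, against 47.1% on the 0-48 hpf array and 49.0% on the control array. The difference was 1.30 relative to control and 1.42 relative to the 0-48 hpf array, while the 0-48 hpf array was 0.12 below control. Taken without the filter, 1914 other genes had a mean signal within 0.5 of that of opn1mw2. Of these, 1 was above control by at least as much as opn1mw2 on the 48-96 hpf array. It was cyp2k18, a cytochrome P450 (3.01), and it was looked up after the values were seen. In the other direction, the lowest of the 1914 genes was at -1.63. Because opn1mw2 stood out in the cone set by this same reading, its place among these genes is a description.

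In the RefSeq gene order of the GRCz12tu assembly, opn1mw1, opn1mw2, opn1mw3 and opn1mw4 lie next to each other as a cluster of green opsin genes. Of these, opn1mw4 had a probe set as well. It read 6.11 on the 48-96 hpf array and 5.88 on the 0-48 hpf array, against 5.83 on the control array, all under the filter. Whether probes of 1 green opsin also bind transcripts of its neighbours was not tested. No probe set had opn1mw3 as its single symbol here.

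The red opsin opn1lw1, which neighbours opn1sw2 in the same gene order, was under the filter on all 3 arrays. It read 5.65 on the 48-96 hpf array and 5.61 on the 0-48 hpf array, against 5.33 on the control array. Its differences of 0.32 and 0.28 from control went the opposite way to those of the ultraviolet and blue opsins. At such low signal the median of 941 other genes within 0.5 of its mean was 0.09 on the 48-96 hpf array (SD 0.23) and -0.0043 on the 0-48 hpf array (SD 0.16). The readings for opn1lw1 thus lie within 2 SDs of genes of like signal. No probe set had opn1lw2, which follows opn1lw1 in the gene order, as its single symbol, so red opsin was read from opn1lw1 only.

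The genes of the set that act downstream of the opsins were lower than control on both exposed arrays. The transducin subunit gnat2 read 11.93 on the 48-96 hpf array and 11.46 on the 0-48 hpf array, against 12.22 on the control array. It was 1.22-fold lower than control on the 48-96 hpf array and 1.69-fold lower on the 0-48 hpf array. Its dimmer probe set read 9.33 on the 48-96 hpf array, 9.20 on the 0-48 hpf array and 9.69 on the control array. The dimmer probe set gave the same order of arrays with differences from control of -0.36 (48-96 hpf) and -0.49 (0-48 hpf), so only the brighter one passed 1.5-fold in the 0-48 hpf comparison.

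The phosphodiesterase subunit pde6c read 11.53 on the 48-96 hpf array and 11.05 on the 0-48 hpf array, against 11.90 on the control array. It was 1.29-fold lower than control on the 48-96 hpf array and 1.81-fold lower on the 0-48 hpf array, where 6 of the 5492 genes had a lower difference. The cyclase activator guca1c read 8.15 on the 48-96 hpf array and 7.61 on the 0-48 hpf array, against 8.43 on the control array. It was 1.21-fold lower than control on the 48-96 hpf array and 1.76-fold lower on the 0-48 hpf array.

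At 1.5-fold (0.58 on the log2 scale), 3 of the 7 cone genes were lower on the 0-48 hpf array than on control, against 0.601% of all genes (33 of 5492), and 0 were higher, against 0.401% of all genes. At 2-fold 0 were lower or higher, against 0.0364% and 0.091% of all genes. On the 48-96 hpf array 0 of the 7 were lower than control at 1.5-fold, against 0.674% of all genes, and 1, opn1mw2, was higher, against 1.11%. At 2-fold opn1mw2 was still counted as higher, against 0.31% of all genes, and 0 were lower, against 0.091%. Since opn1mw2 had passed the filter through that same reading, its count is a description.

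**Figure D2:**
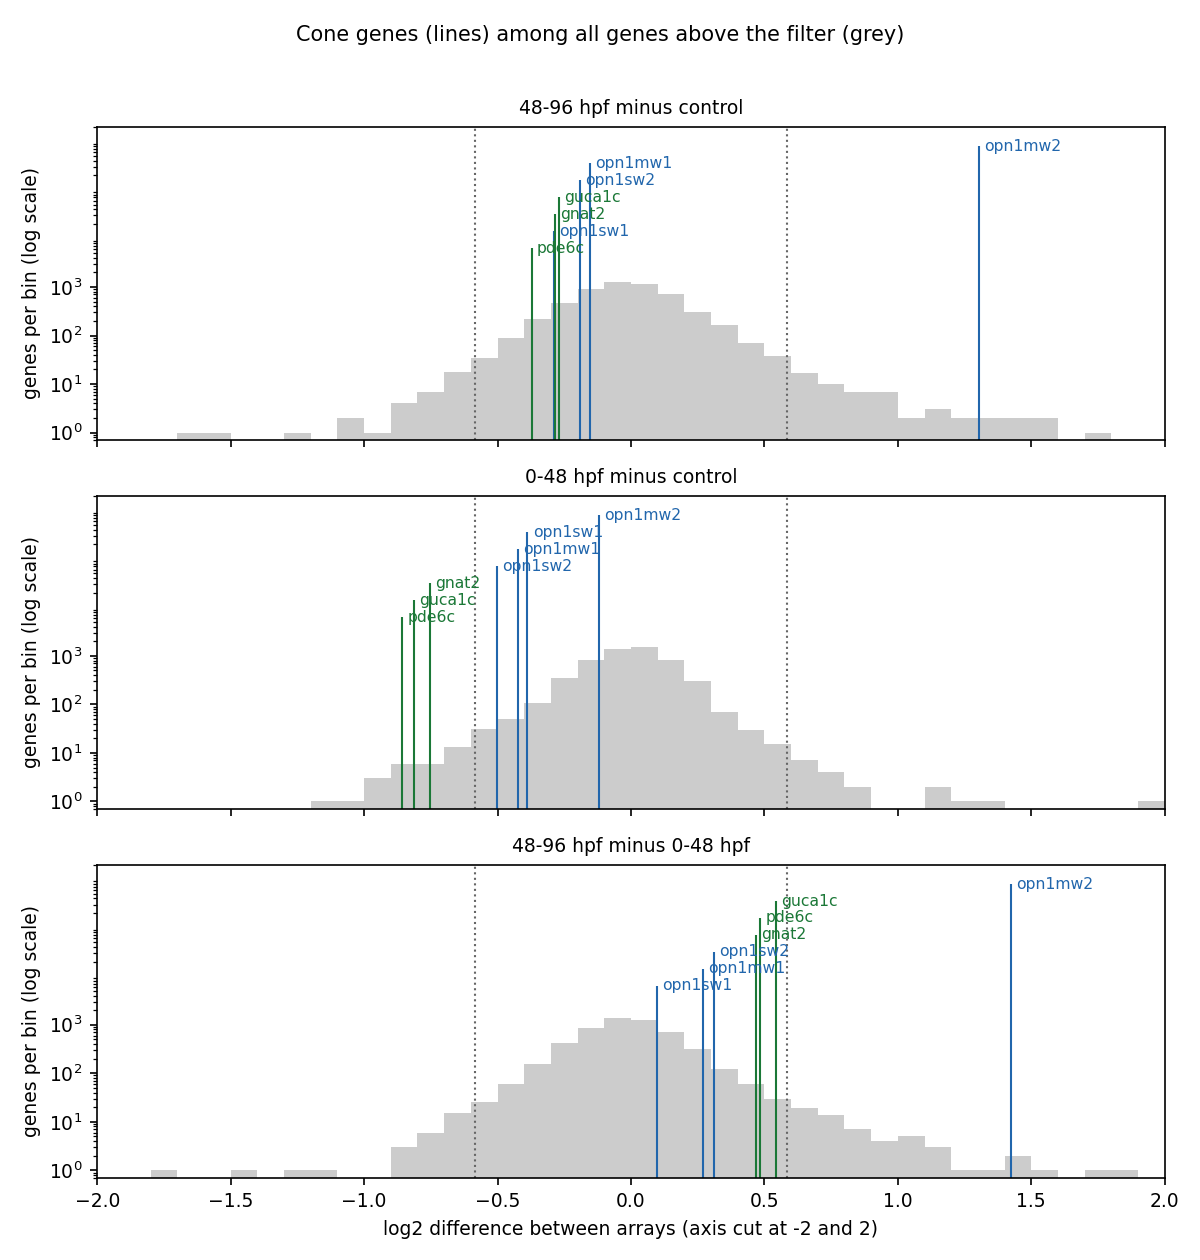
Histograms of the log2 difference of the 5492 genes above the filter (grey, genes per bin of 0.1 on a log scale) in each of the 3 comparisons, with cone opsins as blue lines, cascade genes as green lines and 1.5-fold as dotted lines. In the 0-48 hpf comparison gnat2, guca1c and pde6c lie at -0.75, -0.81 and -0.86, in the lower tail, while in the 48-96 hpf comparison opn1mw2 lies alone at 1.30. Genes beyond -2 and 2 are outside the axis.

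On the 0-48 hpf array the 3 cascade genes were at -0.75 to -0.86, by the brighter probe set of gnat2, and the 4 opsins above the filter at -0.12 to -0.50. The dimmer gnat2 probe set, at -0.49, lay inside the range of the opsins. On the 48-96 hpf array the cascade genes were at -0.27 to -0.37, and opn1sw1, at -0.29, lay inside that range. The probe sets of opn1sw1, opn1sw2 and opn1mw1 had means over the 3 arrays of 12.72 to 13.85, the brightest signals of the set, while opn1mw2 (7.56) had the dimmest signal above the filter. The part of signal strength in the sizes of these differences was not tested. There were 165 other genes at least as bright as the dimmest of these opsins. Of these, 2 were below control on the 0-48 hpf array by at least as much as opn1sw1 (-0.39). They were gngt2b, a gamma subunit of cone transducin (-0.40), and ela2, a pancreatic elastase (-0.58), both looked up after the values were seen. The SD of those 165 genes was 0.12, and in the other direction the highest of them was at 0.41.

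The comparison of the exposed arrays leaves the control array out. On the deposited scale all 7 cone genes read higher on the 48-96 hpf than on the 0-48 hpf array, against 2541 of 5492 genes. The differences ran from 0.10 (opn1sw1) to 1.42 (opn1mw2). Between these lay opn1mw1 at 0.27, opn1sw2 at 0.31, gnat2 at 0.47, pde6c at 0.48 and guca1c at 0.54. At 1.5-fold, opn1mw2 was the only one of the 7 counted as higher, against 1.22% of all genes, and 0 were lower, against 0.528%. At 2-fold these counts were the same, against 0.328% and 0.0728% of all genes. Since opn1mw2 passed the filter through the 48-96 hpf array alone, its count is a description. The median over the 7 was 0.47, against -0.01 over all genes. On the spike-in scale it was -0.042, against -0.52 over all genes, and 5 of the 7 were lower on the 48-96 hpf array.

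Medians over the 7 cone genes were -0.27 for the 48-96 hpf array against control and -0.50 for the 0-48 hpf array against control. Over all 8 genes with a probe set they were -0.23 (48-96 hpf) and -0.46 (0-48 hpf), and without opn1mw2 they were -0.28 and -0.63. Both comparisons use the same control array, so a high or low reading there would move both.

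**Figure D3:**
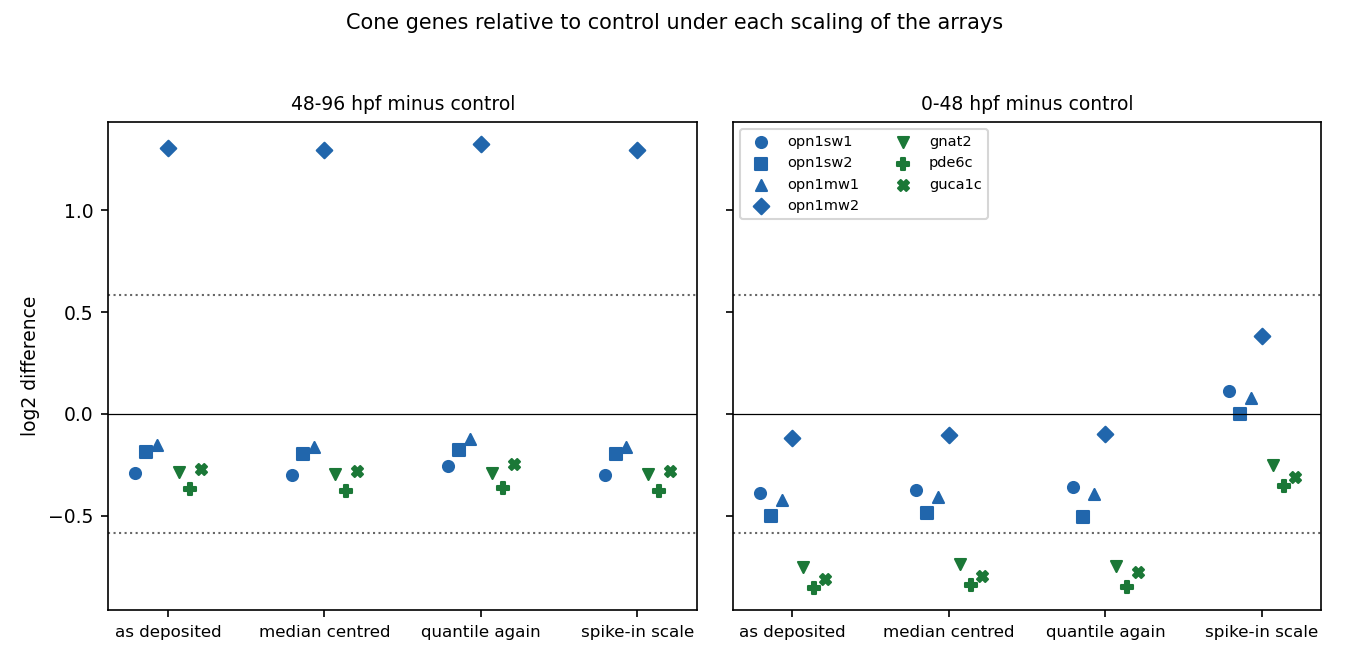
The log2 difference of each cone gene from control on the 48-96 hpf array (left) and the 0-48 hpf array (right), as deposited, after median centring, after a second quantile normalization and on the scale of the spike-ins, with 1.5-fold as dotted lines. The 48-96 hpf values hardly move, whereas on the spike-in scale the 0-48 hpf values are higher by 0.50, which puts 3 opsins above 0 and leaves gnat2, pde6c and guca1c at -0.25 to -0.36.

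On the spike-in scale 4 of the 7 cone genes were below control on the 0-48 hpf array and 3 above it. The differences on that scale were 0.11 for opn1sw1, -0.0011 for opn1sw2, 0.08 for opn1mw1, 0.38 for opn1mw2, -0.25 for gnat2, -0.36 for pde6c and -0.31 for guca1c. All 7 lay below the median of all genes, which was 0.50 on that scale, and 0 passed 1.5-fold. In the comparison of the exposed arrays the spike-in scale put 5 of the 7 cone genes lower on the 48-96 hpf array and 2 higher, with opn1mw2 still higher by 0.91. The median of all genes was -0.52 in that comparison, and all 7 cone genes lay above it. The share of all genes lower there was not counted.

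Other genes of cones, or shared by cones and rods, were read from a list of 33, of which 15 had a probe set and 11 passed the filter. On the 0-48 hpf array 10 of the 11 were below control (median -0.46), against 50.4% of all genes. At least 1.5-fold lower were 3 of them, against 0.601% of all genes. These were pdcb (-0.69) and pdca (-0.84), phosducins that bind transducin beta and gamma subunits, and rgs9a (-0.63), which speeds the shut-off of transducin. Of these, pdca passed the filter through the control array alone (6.78 on the 48-96 hpf array, 6.41 on the 0-48 hpf array and 7.25 on the control array), so its place in the count is a description. The recoverin rcvrn2, a calcium sensor of photoreceptors, was at -0.55. The rest of the 11 were pde6hb (-0.49), gucy2d (-0.46), pde6ha (-0.44), rcvrn3 (-0.43), gngt2b (-0.40), gnb3b (-0.24) and gngt2a (0.22). All of the rest but gngt2a lay inside the range of the opsins above the filter. On the 48-96 hpf array 9 of the 11 were below control (median -0.20), against 54.6% of all genes. At 1.5-fold 0 of them were higher or lower there, against 1.11% and 0.674% of all genes. There pdca was at -0.46, rgs9a at -0.38, rcvrn2 at -0.37 and pdcb at -0.20. The 2 above control there were pde6ha (0.22) and gngt2a (0.03). The list moved with the cone set in the 0-48 hpf comparison, with medians of -0.46 and -0.50 on the deposited scale. This list and those below were chosen with earlier results of these data known and read from the same arrays. Their closeness to the cone set is therefore a description. The spike-in scale shifts every gene by the same amount. On it the list's median was 0.04 and that of the cone set -0.0011, against 0.50 over all genes. Of the lists that follow, those of transcription factors, outer segment and synapse, retinoid cycle, bipolar cells, amacrine, horizontal and ganglion cells, and lens also had 0-48 hpf medians above control on the spike-in scale, and that of rod genes was -0.09.

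Rod genes above the filter had a different balance between the exposure windows. Of 22 rod genes listed, 8 had a probe set and 5 passed the filter. All 5 were below control on both exposed arrays, against 54.6% (48-96 hpf) and 50.4% (0-48 hpf) of all genes. Their medians were -0.69 on the 48-96 hpf array and -0.59 on the 0-48 hpf array, with 3 genes at least 1.5-fold lower on each, against 0.674% (48-96 hpf) and 0.601% (0-48 hpf) of all genes. The rod transducin subunit gnat1 was at -0.89 (48-96 hpf) and -0.77 (0-48 hpf), the disc membrane protein rom1b at -0.69 and -0.78, gnb1b at -0.78 and -0.52, and the rod transducin gamma subunit gngt1 at -0.54 and -0.59, in the same order. Between the exposed arrays the median of the rod genes was -0.02, against 0.47 for the cone genes, a difference for which no test was possible. The fifth gene, gnb1a, was at -0.22 (48-96 hpf) and -0.19 (0-48 hpf). Both gnb1a and gnb1b encode beta subunits that are also used outside rods. The order of the windows depended on the filter. Without it the rod medians were -0.51 (48-96 hpf) and -0.55 (0-48 hpf). Between the exposed arrays the median was then 0.02, against 0.39 for the cone genes. The rod phosphodiesterase subunit pde6a, under the filter, was at -0.47 (48-96 hpf) and -0.88 (0-48 hpf).

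**Figure D4:**
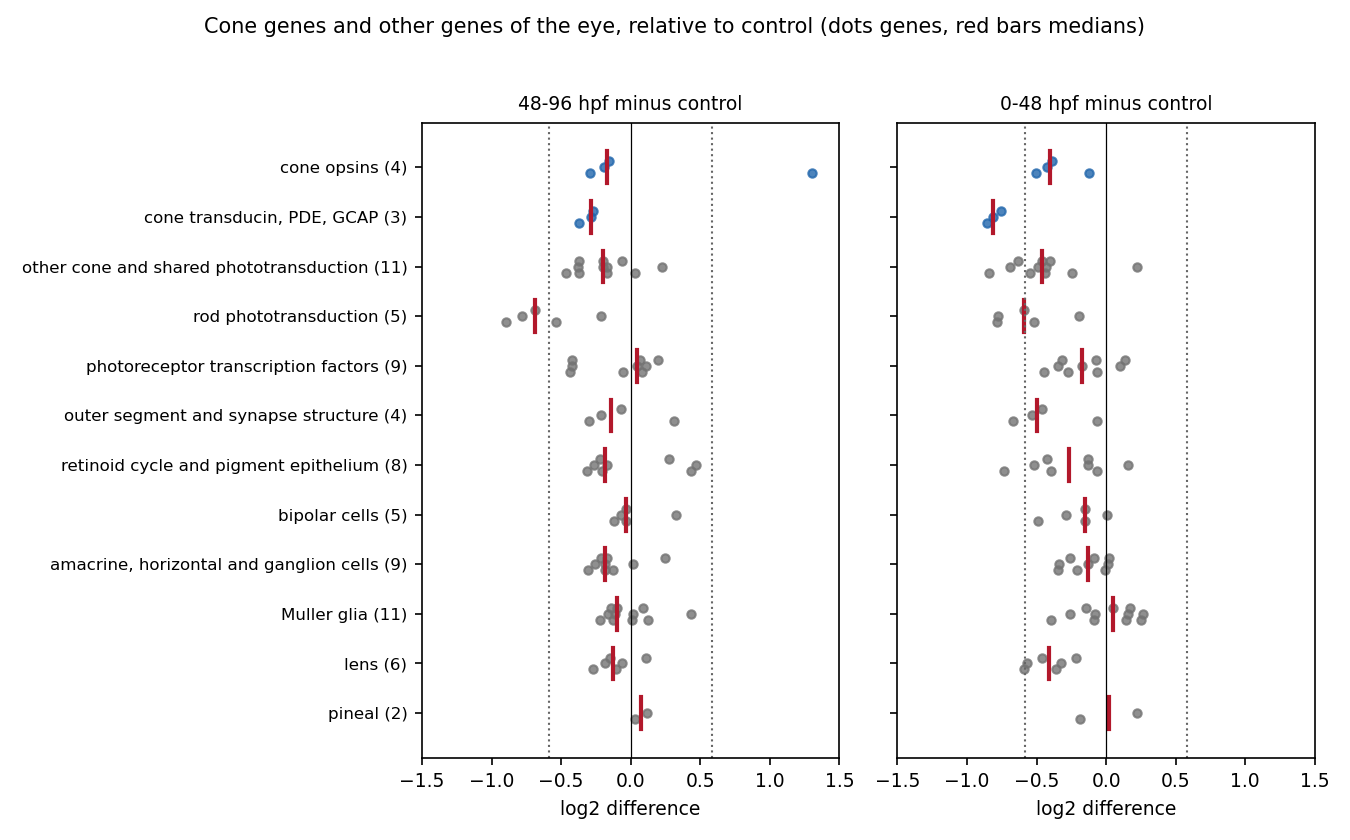
Log2 differences from control on the 48-96 hpf array (left) and the 0-48 hpf array (right) for the cone opsins, the cone cascade genes and 10 lists of other genes of the eye and pineal organ, with 1 dot per gene above the filter, red bars at the medians, the number of genes in brackets and 1.5-fold as dotted lines. The cone cascade genes of the set (gnat2, pde6c and guca1c) are the lowest group on the 0-48 hpf array, and rod genes are the lowest on the 48-96 hpf array.

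Genes that support the outer segment or the visual pigment were read in the same way, beside the shares of all genes below control. These shares were 54.6% (48-96 hpf) and 50.4% (0-48 hpf). Of the 4 outer segment and synapse genes above the filter, all were below control on the 0-48 hpf array (median -0.50) and 3 on the 48-96 hpf array (median -0.14). The peripherins prph2a and prph2b, which shape the rims of outer segment discs, were at -0.30 and 0.31 on the 48-96 hpf array and at -0.67 and -0.46 on the 0-48 hpf array. Among 8 genes of the retinoid cycle and pigment epithelium, 5 were below control on the 48-96 hpf array (median -0.19) and 7 on the 0-48 hpf array (median -0.26). The 0-48 hpf median was -0.13 without the filter, and -0.40 both with the filter at the 75th percentile and without probe sets marked as cross-hybridising. The retinoid carrier rbp3 of the space between photoreceptors and pigment epithelium was at -0.31 (48-96 hpf) and -0.73 (0-48 hpf). The opsin-like retinal protein rgrb was above control on both, at 0.47 and 0.16.

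Of 9 transcription factors of photoreceptors above the filter, 4 were below control on the 48-96 hpf array (median 0.04), against 54.6% of all genes. On the 0-48 hpf array 7 were below control (median -0.18), against 50.4%. At 1.5-fold 0 were higher or lower on either array. The shares of all genes were 1.11% higher and 0.674% lower (48-96 hpf) and 0.401% higher and 0.601% lower (0-48 hpf). Under a stricter filter, the 75th percentile of all values, the 48-96 hpf median of this list turned to -0.42. The factor crx, which drives photoreceptor genes, was at -0.42 (48-96 hpf) and -0.35 (0-48 hpf), neurod1 was at -0.44 and -0.32, and rorab was at -0.42 and -0.18. On the 48-96 hpf array these 3 were below every cone gene, the lowest of which was pde6c at -0.37. The factor six7, which is needed for green opsin expression in zebrafish, was at 0.08 on the 48-96 hpf array and -0.45 on the 0-48 hpf array. It read 7.49 on the 48-96 hpf array and 6.97 on the 0-48 hpf array, against 7.41 on the control array.

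Markers of other cells that the whole larvae contain were set beside these values, with rlbp1a also in the retinoid list and gngt2a in both the cone and the pineal list. Whole larvae also hold brain and other tissue, where genes of the retinal lists can be expressed. Medians of these lists therefore do not describe the retina alone, and the source of their signal was not tested. Bipolar cell genes had medians of -0.03 (48-96 hpf) and -0.15 (0-48 hpf) over 5 genes, and genes of amacrine, horizontal and ganglion cells -0.18 and -0.13 over 9 genes. On each exposed array 4 of the 5 and 7 of the 9 were below control, against 54.6% (48-96 hpf) and 50.4% (0-48 hpf) of all genes. Among the bipolar genes cabp5b was at -0.12 (48-96 hpf) and -0.49 (0-48 hpf), and samsn1a at 0.32 and -0.29. Genes of Muller glia had medians of -0.10 and 0.05 over 11 genes, the second of which was 0.55 on the spike-in scale, and the mean log2 level of these 11 was 10.24 on the 48-96 hpf array, 10.27 on the 0-48 hpf array and 10.26 on the control array. The lens list moved with the cone genes on the 0-48 hpf array. All 6 lens genes above the filter were below control there (median -0.41), against 50.4% of all genes. On the 48-96 hpf array 5 of 6 were below control (median -0.13), against 54.6%. The mean log2 level of the 7 lens genes with a probe set was 9.42 on the 48-96 hpf array and 9.15 on the 0-48 hpf array, against 9.49 on the control array. The part of a difference in eye tissue in the cone readings was not tested. The pineal organ also holds photoreceptors, and its opsin exorh, above the filter on the 48-96 hpf array alone, was at 0.12 (48-96 hpf) and -0.19 (0-48 hpf), while aanat2, an enzyme of melatonin synthesis, was under the filter.

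Genes with a pattern most like that of the cone set were sought by the distance between pairs of differences from control (48-96 hpf, 0-48 hpf) over the 3 arrays. The 5 nearest to the median pair of the 7 cone genes were stxbp5a, gbp, lrrc4.1, lctla and rbp4l, at distances of 0.037 to 0.066 log2 units. Of these, lctla is in the lens list and rbp4l in the retinoid list. The 5 nearest to opn1mw2 were me1, cyb5a, ces2b, sult6b1 and faxdc2, farther away at 0.17 to 0.29. They read 1.12 (faxdc2) to 1.52 (sult6b1) above control on the 48-96 hpf array and 0.04 to 0.12 above it on the 0-48 hpf array. Among them are malic enzyme (me1), a carboxylesterase (ces2b), a sulfotransferase (sult6b1) and cytochrome b5 (cyb5a).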

How the data were processed

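The authors deposited log2 values made with RMA, per the submitters' processing notes, for 15617 probe sets on 3 arrays, 1 per group. The software, its version and the probe-level data were not used here. Array medians were 7.23 (48-96 hpf), 7.20 (0-48 hpf) and 7.22 (control), and nothing was rescaled for the main values. Gene symbols came from the array's annotation of 2016, updated by Entrez ID through RefSeq. Where a gene had several probe sets, the one with the highest mean was used. Genes were kept when their highest value reached the median of all deposited values. With 1 array per group no p-value was computed, and genes were counted at 1.5-fold, with 2-fold beside it. The cone genes and 10 comparison lists were chosen with earlier results of these data known. Named genes are all cone genes, up to 4 of each list with the largest difference, and the 5 nearest patterns. Other genes are named only to complete a count or list. The counting code was run on simulated data with shifts well past 1.5-fold and noise below the spread between probe sets of a gene. That run checks the code and says nothing about the accuracy of the counts here. Alternatives were median centring, a second quantile normalization, spike-in scaling, averaging the probe sets of a gene, dropping probe sets marked as cross-hybridising, other filters, 2-fold and leaving out opn1mw2. Computation used Python 3.11.15, numpy 2.4.6 and pandas 2.3.3. No sequence of these genes was used. The precision is limited by the number of arrays.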

Additional observations from a re-analysis of the deposited data

Results flagged for a closer look

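In 4 named genes the exposed arrays lay on opposite sides of control, each by more than the spread between probe sets of a gene. The share of all genes with this pattern was not counted, and list genes are named for large differences. For opn1mw2 and dhrs9 the 0-48 hpf side, at -0.12 and -0.13, was close to that spread of 0.11. Of all genes, 20.5% were lower than opn1mw2 in the 0-48 hpf comparison. With 1 array per group the difference between the exposure windows was not tested. The green opsin opn1mw2 was at 1.30 on the 48-96 hpf array and -0.12 on the 0-48 hpf array relative to control, a difference of 1.42. For prph2b, a peripherin of the outer segment, the values were 0.31 (48-96 hpf) and -0.46 (0-48 hpf), a difference of 0.77. For dhrs9, a retinol dehydrogenase of the retinoid list, they were 0.43 and -0.13, a difference of 0.56, and for samsn1a of the bipolar list 0.32 and -0.29, a difference of 0.61. Both opn1mw2 and samsn1a (7.23 on the 48-96 hpf array, 6.62 on the 0-48 hpf array and 6.91 on the control array) passed the filter through the 48-96 hpf array alone, where they are high. On the spike-in scale the 0-48 hpf values of these genes were 0.38 (opn1mw2), 0.04 (prph2b), 0.37 (dhrs9) and 0.21 (samsn1a), so that none of the 4 lay on opposite sides of control.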

How the results depend on the processing

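The spread between probe sets of a gene served as the tolerance for a moved value. The median of the cone genes on the 0-48 hpf array against control was -0.0011 on the spike-in scale and -0.63 without opn1mw2. The count of cone genes at least 1.5-fold lower there was 0 on the spike-in scale and 0 at 2-fold. The median between the exposed arrays turned to -0.042 on the spike-in scale, and was 0.31 both with the mean over probe sets and with a stricter filter of 8.49, the 75th percentile, which leaves out opn1mw2 and guca1c. The count of 1 cone gene higher on the 48-96 hpf array, against control or against the 0-48 hpf array, was 0 with that filter and without opn1mw2. With the mean over probe sets gnat2 was at -0.62 on the 0-48 hpf array. The median of the rod genes on the 48-96 hpf array was -0.51 without the filter. Spike-in scaling turned the medians of other lists on the 0-48 hpf array to 0.042 (other cone and shared genes), 0.32 (transcription factors), 0.0048 (outer segment and synapse), 0.24 (retinoid cycle), 0.35 (bipolar cells), 0.37 (amacrine, horizontal and ganglion cells) and 0.091 (lens). Between the exposed arrays they turned to -0.26 (other cone and shared genes), -0.091 (outer segment and synapse), -0.20 (retinoid cycle) and -0.24 (lens). These shifts follow from the scale, since the spike-ins moved by 0.50. No paired analysis was possible because each group has 1 array.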
